A study of Danio rerio with 6 samples.

Results

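The genes described here encode the subunits of the oxidative phosphorylation machinery, and were compared between whole thymi of foxn1-/- and foxn1+/+ zebrafish. Members were all Ensembl identifiers whose gene symbol begins with ndufa, ndufb, ndufc, ndufs, ndufv, sdha to sdhd, uqcr, cox4 to cox8 or atp5, and that had more than 5 counts in at least 3 libraries. The prefixes matched 108 identifiers, of which 106 passed the count minimum, among 23805 genes tested and 32520 identifiers in the files. The prefixes also catch proteins that are not subunits, so the members were split into 90 subunits and 16 associated factors, most of them assembly factors. The 2 identifiers left out were NDUFS1 (ENSDARG00000028546), listed with 3 counts in foxn1+/+ replicate 3 and 0 in the other libraries, and ndufa4l2b, with 0 counts in every foxn1-/- library and at most 1 in foxn1+/+ libraries. NDUFS1 encodes a core subunit of complex I, so these counts leave that subunit unmeasured here.

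Oxidative phosphorylation takes place in the inner mitochondrial membrane. Complexes I and II pass electrons from NADH and succinate to ubiquinone, complex III hands them to cytochrome c, and complex IV, cytochrome c oxidase, reduces oxygen. Complexes I, III and IV pump protons, and complex V, the ATP synthase, uses the gradient to make ATP. Most subunits are encoded in the nucleus and a few in the mitochondrial genome. Tissues with a high demand for ATP, such as muscle, are rich in these proteins. In mammals, several subunits of complex IV exist as paralogues of which one is used mainly in heart and skeletal muscle.

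The foxn1-/- fish carried an internal deletion of foxn1, which encodes a transcription factor that thymic epithelial cells need for their differentiation, and foxn1+/+ fish carried intact alleles. Fish of both genotypes were adults aged 3 months and carried the ikzf1:EGFP reporter. Each library held the RNA of 3 animals, and 3 libraries were made per genotype, for 18 fish in all. The deposited values are raw counts per gene, which summed to between 31989159 and 42198532 per library. Levels are given below as CPM, the counts relative to the library total after scaling by TMM, and replicates 1 to 3 of a genotype are always given in that order.

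Transcripts of foxn1 itself were counted 114, 129 and 66 times in foxn1-/- libraries, against 495, 375 and 349 times in foxn1+/+ libraries (log2 fold change -1.79, SE 0.263, adjusted p = 0.000792). Other cell types differed as well. All 19 thymocyte markers tested were lower in foxn1-/- thymi and made up 0.0887%, 0.0922% and 0.0424% of the counts there, against 1.81%, 1.44% and 1.79% in foxn1+/+ thymi. All 35 contractile muscle markers tested were higher and took 13.8%, 16.2% and 11.9% of the counts in foxn1-/- libraries, against 1.38%, 1.08% and 2.49% in foxn1+/+ libraries, where replicate 3 was highest. Of the cardiac muscle list, 6 of 8 genes tested were higher and 1 lower, among them MYH6 (ENSDARG00000114031) with 3438, 1106 and 3127 counts in foxn1-/- libraries against 132, 149 and 689 in foxn1+/+ libraries, whereas nppa, nppb, MYL7 and cmlc1 of that list had at most 2 counts in any foxn1-/- library and at most 5 in any foxn1+/+ library. Erythrocyte markers were higher for 9 of 10 genes and lower for 1, and held 0.0887%, 0.1002% and 0.244% of the counts in foxn1-/- libraries against 0.0251%, 0.0318% and 0.0353% in foxn1+/+ libraries. Photoreceptor markers, of which 2 of 16 were higher and 14 did not pass, held 0.00121%, 0.00356% and 0.0644% in foxn1-/- libraries against 0.00737%, 0.00422% and 0.00388% in foxn1+/+ libraries. For both of these lists foxn1-/- replicate 3 stood apart from the other libraries of its genotype. Markers of ionocytes, which are cells rich in mitochondria, were higher for 18 of 19 genes tested and held 0.280%, 0.251% and 0.287% of the counts in foxn1-/- libraries, against 0.113%, 0.140% and 0.117% in foxn1+/+ libraries. Both SLC4A1 identifiers stood in the ionocyte list and in the erythrocyte list. Of these, ENSDARG00000012881 had 3123, 3021 and 7976 counts in foxn1-/- libraries, highest in replicate 3, against 629, 777 and 1023 in foxn1+/+ libraries. In bulk tissue, fewer cells of a type and less RNA per cell cannot be told apart. The part of muscle, ionocytes, erythrocytes, photoreceptors and thymocytes in the results below was not tested.

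Most members were higher in foxn1-/- thymi. Of 106 members, 80 were higher, 6 were lower and 20 passed the threshold in neither direction (edgeR quasi-likelihood test, Benjamini-Hochberg adjusted p under 0.05 over all genes). Over all genes tested, 72.1% were called, 36.2% as higher and 35.9% as lower, so that the calls of the whole table were nearly balanced while those of the members were not. All 3 foxn1-/- libraries lay above all 3 foxn1+/+ libraries for 83 members (37.8% of all genes), below them for 8 (39.3% of all genes), and overlapped for 15. Without foxn1-/- replicate 3, 76 members were higher and 5 lower, with a median log2 fold change of 0.66. The median log2 fold change of the members was 0.63, a 1.55-fold higher level, against 0.02 over all genes. The changes were moderate, since 25 members were higher by more than 2-fold, compared with 30.2% of all genes. The 90 subunits held 72 of the higher and 4 of the lower calls, with a median of 0.70, and the associated factors the other 8 and 2, with a median of 0.24.

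The subunits moved by similar amounts in complexes I, II, III and V, whose median log2 fold changes were 0.71, 0.71, 0.73 and 0.72, and were more spread out in complex IV, with a median of 0.60. The interquartile range was 1.31 in complex IV and between 0.44 and 0.57 in the others. Outside complex IV, 60 of 68 subunits were higher and 0 lower by edgeR, whereas complex IV had 12 higher, 4 lower and 6 in neither class among 22. Outside complex IV the number of lower subunits was also 0 at an unadjusted p under 0.05 and with DESeq2 or voom and treat, but with library size alone atp5mea was lower (-0.55, adjusted p = 0.00486). The lowest and the highest member of the whole set, at -3.68 and 3.56, were both subunits of complex IV.

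**Figure D1:**
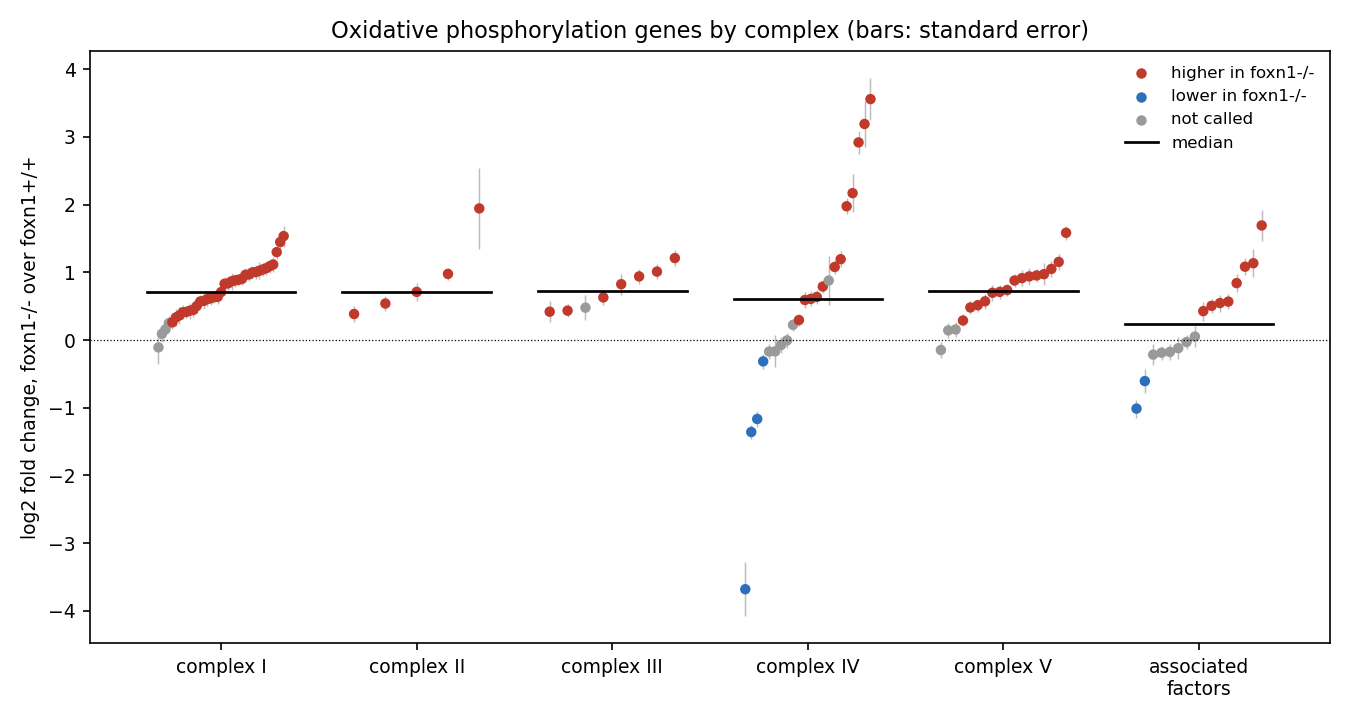
Each point is 1 of the 106 members, with its log2 fold change of foxn1-/- over foxn1+/+ thymi on the vertical axis and its standard error as a bar (3 libraries per genotype), sorted within each complex on the horizontal axis. Black lines are medians: 0.71, 0.71, 0.73, 0.60 and 0.72 for complexes I to V and 0.24 for the associated factors; complex IV spans -3.68 to 3.56.

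These directions were read against the scaling. TMM gave scaling factors between 0.838 and 0.887 for foxn1-/- libraries and between 1.12 and 1.18 for foxn1+/+ libraries. Scaled by library size alone, the median of all genes moved to -0.39 and 38.4% of the calls over all genes were higher, compared with 50.2% under TMM. Under that scaling 46 members were higher and 15 lower, and their median was 0.23. The distance between the member median and that of all genes was 0.61 with library size alone and 0.62 with TMM. A share of all counts is scaled by library size alone as well. By that share, the 90 subunits together took 1.42%, 1.32% and 1.49% of the counts in foxn1-/- libraries. In foxn1+/+ libraries they took 1.05%, 1.12% and 1.08%, and the ranges did not overlap. The sum is weighted by abundant genes, and complex V alone held a mean of 0.696% in foxn1-/- and 0.503% in foxn1+/+ libraries.

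**Figure D2:**
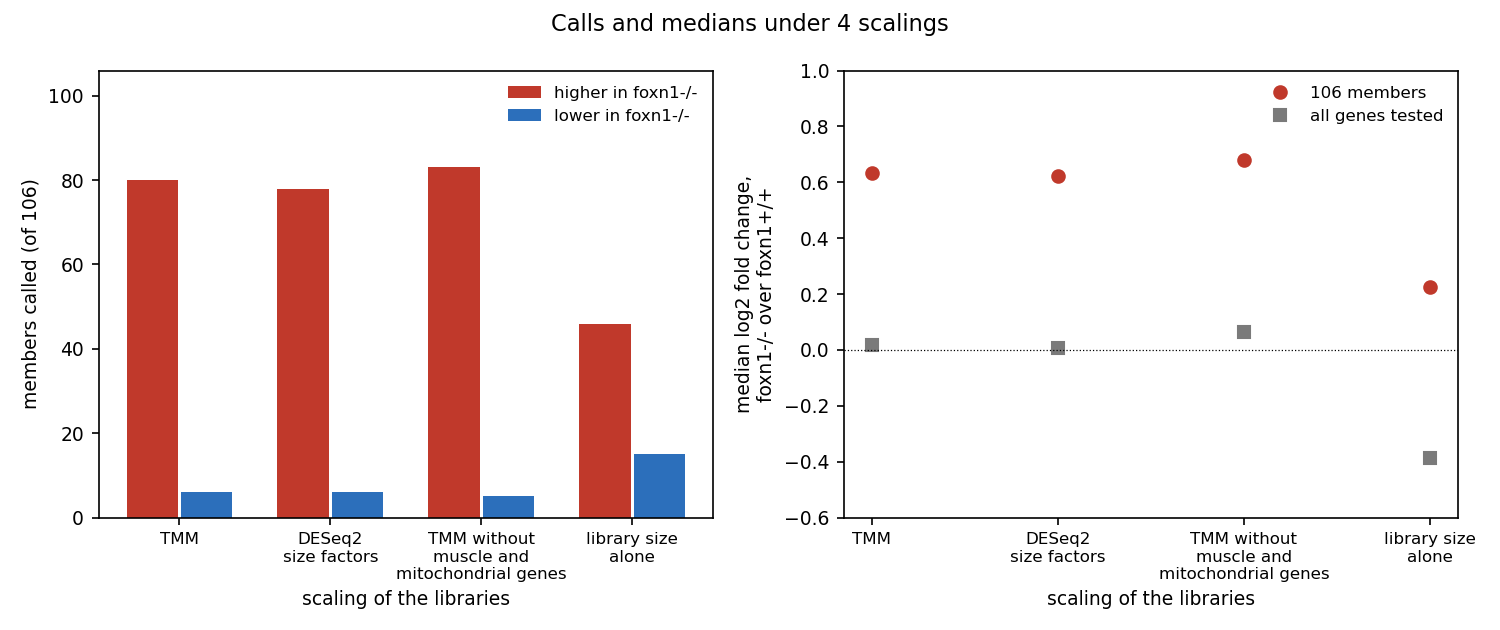
The left panel gives the number of the 106 members called higher and lower in foxn1-/- thymi under 4 ways of scaling the libraries, and the right panel the median log2 fold change of the members and of all genes tested. With library size alone, higher calls number 46 rather than the 80 of TMM, and both medians lie lower, at 0.23 for the members and -0.39 for all genes, with the distance between them kept.

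In complex I, which oxidizes NADH, 33 of 37 subunits were higher in foxn1-/- thymi, and log2 fold changes ran between -0.11 and 1.54. NDUFB9, an accessory subunit of the membrane arm and the complex I member with the most counts, was present at 239.8, 215 and 242 CPM in foxn1-/- thymi and at 166, 167 and 179 CPM in foxn1+/+ thymi (log2 fold change 0.44, SE 0.103, adjusted p = 0.00648). Every foxn1-/- library exceeded every foxn1+/+ library. NDUFV1, the core subunit that binds NADH, moved less than the median of the complex and measured 168, 153 and 175 CPM in foxn1-/- thymi against 138, 135 and 141 CPM in foxn1+/+ thymi (0.26, SE 0.0996, adjusted p = 0.0463). The groups were separate, but the call was lost when any 1 library other than foxn1-/- replicate 2 was left out (adjusted p up to 0.117) and, scaled by library size alone, the log2 fold change was -0.14.

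The largest change in complex I was that of ndufa9b, with 13.8, 10.7 and 12.7 CPM in foxn1-/- thymi against 4.42, 4.49 and 3.90 CPM in foxn1+/+ thymi (1.54, SE 0.155, adjusted p = 0.000152). Its paralogue NDUFA9, an accessory subunit at the junction of the arms, was at 147, 132 and 141 CPM in foxn1-/- thymi against 72.8, 72.9 and 78.6 CPM (0.90, SE 0.0977). The ratio of ndufa9b to NDUFA9 was thus 1.55-fold higher in foxn1-/- libraries. The 2 genes for the mitochondrial acyl carrier protein behaved more alike, at 0.71 for ndufab1b (SE 0.107) and 0.50 for NDUFAB1 (SE 0.104).

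The 4 subunits of complex I that did not pass were NDUFB2, NDUFS6, ndufc1 and NDUFV2. NDUFB2 had 42.8, 40.8 and 22.3 CPM in foxn1-/- thymi and 38.2, 40.1 and 36.0 CPM in foxn1+/+ thymi (-0.11, SE 0.239, adjusted p = 0.696), and the low value of foxn1-/- replicate 3 gave the fit its sign. Without that library the log2 fold change was 0.18. NDUFS6 and ndufc1 overlapped between genotypes (0.16 and 0.09), and NDUFV2, at 0.25 with all foxn1-/- libraries above all foxn1+/+ libraries, had an adjusted p of 0.0529, or 0.0193 without foxn1-/- replicate 2.

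Complex II, which also serves the citric acid cycle as succinate dehydrogenase, had all 5 of its identifiers higher in foxn1-/- thymi. SDHA, the flavoprotein that oxidizes succinate, measured 235, 200.2 and 259.6 CPM in foxn1-/- thymi against 128, 143 and 153 CPM in foxn1+/+ thymi (0.71, SE 0.136, adjusted p = 0.00261). SDHB, its iron-sulfur partner, moved least, with 125, 119 and 126 CPM in foxn1-/- thymi against 105, 95.2 and 83.3 CPM (0.38, SE 0.115, adjusted p = 0.0186), although the groups did not overlap. Without foxn1+/+ replicate 3 the adjusted p of SDHB was 0.0579, and with library size alone its fold change was -0.02.

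The membrane anchor SDHD was listed under 2 identifiers. ENSDARG00000030139 held nearly all of the counts, with 107, 95.6 and 116 CPM in foxn1-/- thymi against 72.9, 72.5 and 73.6 CPM in foxn1+/+ thymi (0.54, SE 0.105, adjusted p = 0.00288). ENSDARG00000055712 had only 13, 56 and 27 counts in foxn1-/- libraries and 6, 9 and 12 in foxn1+/+ libraries (1.94, SE 0.601, adjusted p = 0.0216), and its high value rested most on foxn1-/- replicate 2. Without that library it was 1.33 with an adjusted p of 0.0533, and without foxn1+/+ replicate 1 or 2 the adjusted p was 0.0715 and 0.0569. The log2 ratio of the minor to the major identifier overlapped between genotypes (exact permutation test, p = 0.2).

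In complex III, 7 of 8 subunits were higher, and all 8 had every foxn1-/- library above every foxn1+/+ library. UQCRFS1, the Rieske iron-sulfur protein that takes electrons from ubiquinol, led with 312, 268 and 324 CPM in foxn1-/- thymi against 122, 134 and 134 CPM in foxn1+/+ thymi (1.21, SE 0.117, adjusted p = 0.000132). UQCRC1, a core protein without a redox group and the member of the complex with the most counts, changed least, at 401, 300.4 and 428 CPM in foxn1-/- thymi against 264, 283 and 297 CPM (0.42, SE 0.155, adjusted p = 0.0422). The foxn1-/- replicate 2 was close to the foxn1+/+ range for UQCRC1, and leaving out any single library other than that one brought the adjusted p to between 0.0681 and 0.125. The paralogous core proteins uqcrc2a and UQCRC2 were higher by 0.94 (SE 0.105) and 0.63 (SE 0.115), and UQCRB missed the threshold (0.48, adjusted p = 0.0519, or 0.0149 without foxn1-/- replicate 2).

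In complex IV, paralogues of one subunit moved apart in most families. The subunits COX4, COX5B, COX6A, COX6B, COX7A, COX8 and NDUFA4 are each represented by more than 1 identifier, and in each of these families at least 1 pair of identifiers changed its ratio without overlap between genotypes. Members of a family were compared by the log2 ratio of their counts within a library, which depends on neither scaling nor depth. Of 19 such ratios over all complexes, 15 did not overlap between genotypes. Among all 3280 pairs of tested genes that share a symbol and have counts in every library, 59.6% of such ratios did not overlap, and 77.2% of single genes did not, so the lack of overlap is common in these libraries. With 3 libraries against 3 the exact permutation test cannot go below p = 0.1, which is the value each of those 15 had. Levels of different genes are not set against each other here, because counts also grow with transcript length.

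COX6A gave the largest shift. The identifier listed as COX6A1 (ENSDARG00000054588) measured 458, 349 and 449.9 CPM in foxn1-/- thymi and 30.1, 24.2 and 52.2 CPM in foxn1+/+ thymi, an 11.8-fold higher level (log2 fold change 3.56, SE 0.316, adjusted p = 0.000108). The identifier listed as cox6a1 (ENSDARG00000022438) overlapped between genotypes, with 76.6, 86.0 and 78.5 CPM in foxn1-/- thymi and 90.2, 100.4 and 80.7 CPM in foxn1+/+ thymi (-0.17, SE 0.116, adjusted p = 0.219). With library size alone this identifier was lower (-0.58, adjusted p = 0.00518). The log2 ratio of the first to the second was 2.37 ± 0.308 in foxn1-/- and -1.42 ± 0.724 in foxn1+/+ libraries (SD, n = 3 each), a difference of 3.79. The table of names gives both identifiers the same symbol apart from case, so which of them corresponds to the muscle form of mammals is not given by the name.

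COX5B, a nuclear subunit on the matrix side that binds zinc, was listed under 3 identifiers that did not move alike. ENSDARG00000068738 had 188, 144 and 182 CPM in foxn1-/- thymi against 13.6, 13.7 and 29.0 CPM in foxn1+/+ thymi (3.19, SE 0.335, adjusted p = 0.000203). ENSDARG00000015978 had 159.9, 188 and 170.2 CPM in foxn1-/- thymi against 217, 229.7 and 198 CPM (-0.31, SE 0.115, adjusted p = 0.0403). ENSDARG00000113254 had 2, 4 and 3 counts in foxn1-/- libraries against 42, 53 and 38 counts in foxn1+/+ libraries, a ratio of 0.0766 with a 95% counting interval of 0.0343 to 0.150.

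The groups were separate for all 3 COX5B identifiers. The small fall of ENSDARG00000015978 was the least certain, since its adjusted p was between 0.102 and 0.177 when foxn1-/- replicate 1 or 3 or foxn1+/+ replicate 1 or 2 was left out. The log2 ratio of ENSDARG00000068738 to ENSDARG00000015978 was -0.02 ± 0.326 in foxn1-/- libraries and -3.61 ± 0.729 in foxn1+/+ libraries. Summed over the 3 identifiers, COX5B reached 344 ± 10.3 CPM in foxn1-/- and 235 ± 8.81 CPM in foxn1+/+ thymi, so the family total changed far less than its composition. How the authors' counting treated reads shared by identifiers of the same symbol is not given in the sources used here, so the split between them is uncertain.

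COX7A and COX8 each have a form that mammals use mainly in heart and skeletal muscle. In the zebrafish thymi, cox7a1 measured 92.7, 71.3 and 81.5 CPM in foxn1-/- libraries against 9.99, 9.56 and 12.9 CPM in foxn1+/+ libraries (2.92, SE 0.168, adjusted p = 2.98e-05). The related COX7A2 (ENSDARG00000053217) measured 109.8, 115 and 110.0 CPM in foxn1-/- thymi against 90.7, 100.8 and 95.2 CPM (0.22, SE 0.0939, adjusted p = 0.0642), which did not pass although the groups were separate. A further COX7A2 identifier, ENSDARG00000110700, was lower in foxn1-/- thymi, with 16.3, 16.2 and 17.4 CPM against 42.1, 36.4 and 33.3 CPM (-1.17, SE 0.120, adjusted p = 0.000168). The cox7a1 to COX7A2 (ENSDARG00000053217) ratio was 6.49-fold higher in foxn1-/- libraries.

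For COX8, cox8b measured 24.0, 23.1 and 24.0 CPM in foxn1-/- thymi and 5.80, 5.68 and 6.59 CPM in foxn1+/+ thymi (1.98, SE 0.117, adjusted p = 3.13e-05), with little spread within either genotype. The ubiquitous form cox8a overlapped, at 67.2, 72.2 and 66.3 CPM in foxn1-/- thymi against 75.1, 79.8 and 61.7 CPM (-0.07, SE 0.122, adjusted p = 0.601). With library size alone cox8a was lower (-0.48, adjusted p = 0.0137). The ratio of cox8b to cox8a was 4.13-fold higher in foxn1-/- libraries. The COX8 sum was 92.3 ± 2.66 CPM in foxn1-/- and 78.2 ± 8.88 CPM in foxn1+/+ thymi, but as a share of all counts it was 0.00802% and 0.00902%, so its direction turned with the scaling.

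COX6B and COX4 have forms that mammals use in other tissues, COX6B2 in testis and COX4I2 in lung, where it responds to oxygen. Zebrafish cox6b2 was at 387, 341 and 354 CPM in foxn1-/- thymi against 179, 169 and 164 CPM in foxn1+/+ thymi (1.08, SE 0.107, adjusted p = 0.000143), whereas cox6b1 was at 35.7, 32.9 and 35.8 CPM in foxn1-/- thymi against 85.7, 96.5 and 85.4 CPM (-1.36, SE 0.102, adjusted p = 5.65e-05). Both paralogues passed, in opposite directions and by more than 2-fold each. Their log2 ratio was 3.37 ± 0.0656 in foxn1-/- and 0.94 ± 0.127 in foxn1+/+ libraries, a 5.41-fold difference with little spread.

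COX4I2 had 16.7, 28.1 and 21.8 CPM in foxn1-/- thymi against 3.61, 6.53 and 4.70 CPM in foxn1+/+ thymi (2.17, SE 0.278, adjusted p = 0.000435), and COX4I1, the general form, had 236, 219.8 and 211 CPM against 155, 150.1 and 132 CPM (0.61, SE 0.111, adjusted p = 0.00210). Both were higher, and their ratio rose 2.96-fold. The remaining gene of the family, cox4i1l, was at 27.5, 9.74 and 25.4 CPM in foxn1-/- thymi against 12.7, 10.4 and 10.9 CPM (0.88, SE 0.365, adjusted p = 0.0640). Replicate 2 alone among the foxn1-/- libraries was low for cox4i1l, and without it the log2 fold change was 1.26 with an adjusted p of 0.000547.

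NDUFA4, once assigned to complex I and now counted as a subunit of complex IV, was at 346, 301 and 314 CPM in foxn1-/- thymi against 151, 143 and 126 CPM in foxn1+/+ thymi (1.19, SE 0.119, adjusted p = 0.000147). Its paralogue ndufa4b was at 29.7, 58.4 and 37.7 CPM in foxn1-/- thymi against 45.3, 48.0 and 48.0 CPM (-0.17, SE 0.235, adjusted p = 0.541). The foxn1-/- replicates lay on both sides of the foxn1+/+ range for ndufa4b. Without foxn1-/- replicate 2 it was -0.45 with an adjusted p of 0.0169, and without foxn1-/- replicate 1 it was 0.06. The log2 ratio of ndufa4b to NDUFA4 was nonetheless lower in every foxn1-/- library, by 1.42 on average.

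Not all duplicates of complex IV parted. The pair cox5aa and COX5A, which encode another nuclear subunit on the matrix side, rose together, by 0.64 (SE 0.107) and 0.59 (SE 0.119), and their ratio overlapped between genotypes (exact permutation test, p = 0.6). With library size alone neither gene passed (0.23 and 0.18, adjusted p = 0.0913 and 0.201). Of the subunits with 1 identifier, cox6c (0.79) and COX7C (0.30) were higher, COX7C with an adjusted p of 0.0818 and 0.0713 without foxn1+/+ replicate 1 or 2. Under TMM cox7b was level, at 152, 134 and 143 CPM in foxn1-/- thymi against 148, 150.3 and 132 CPM (0.00, SE 0.106, adjusted p = 0.972). With library size alone cox7b was lower (-0.41, adjusted p = 0.00975).

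**Figure D3:**
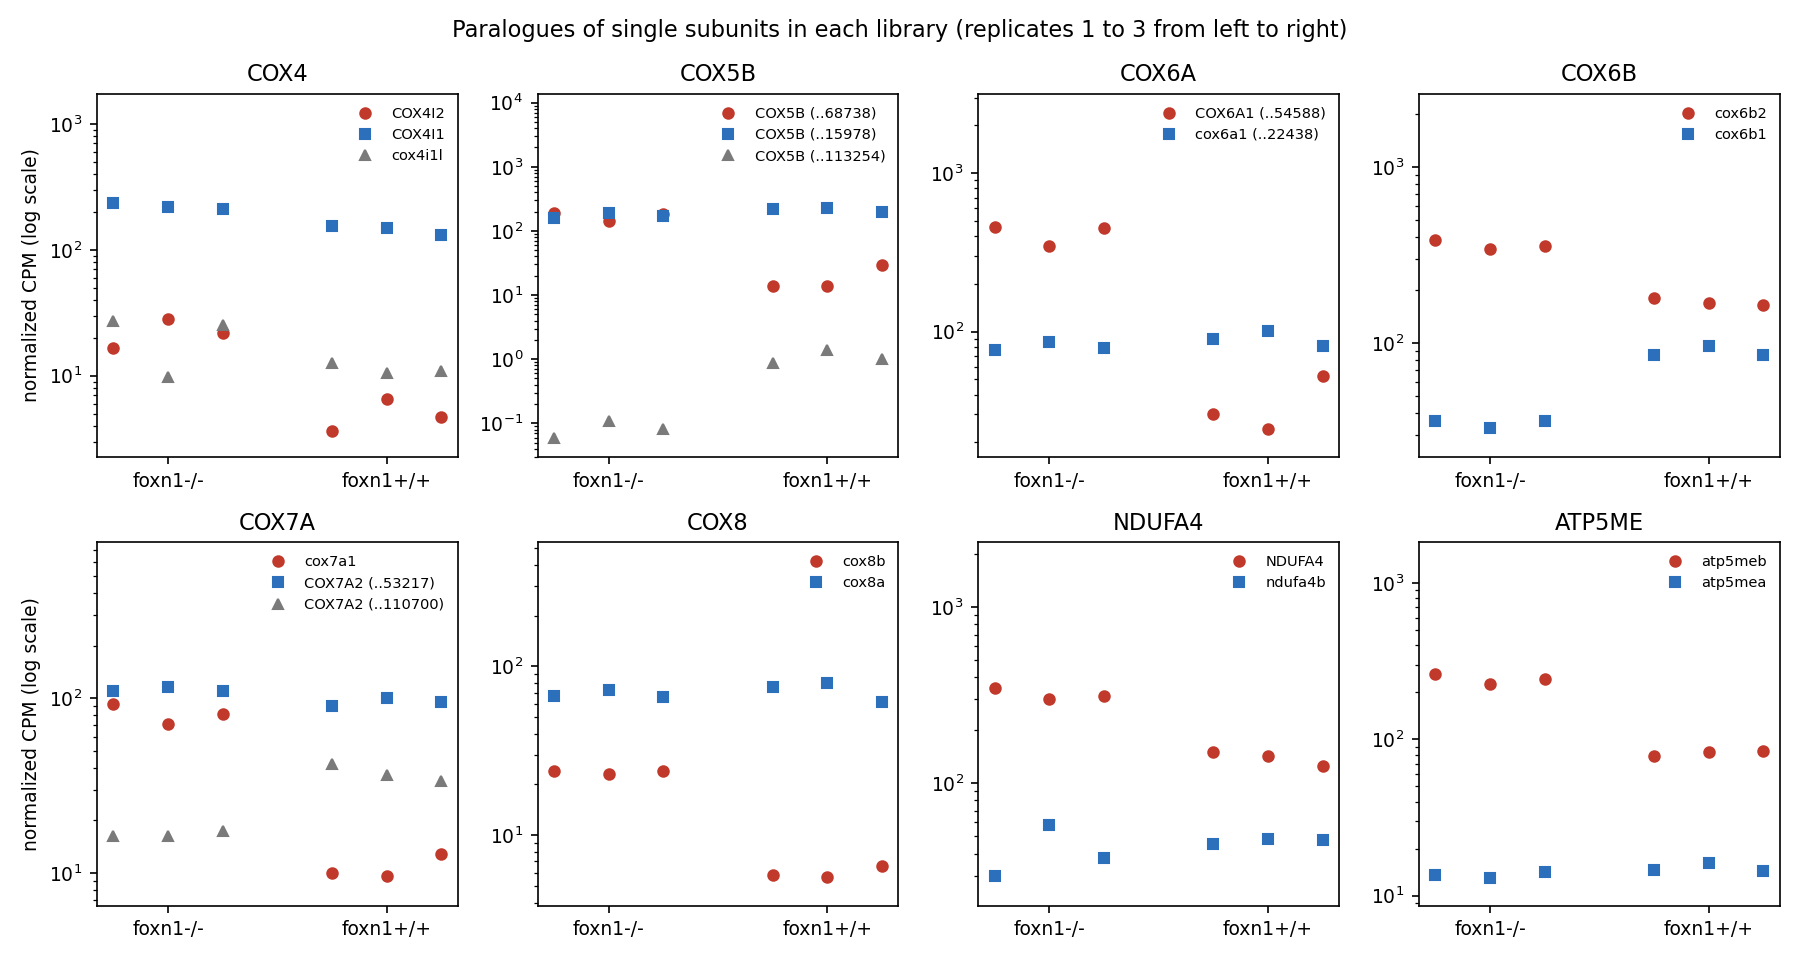
Each point is the normalized CPM (log scale) of 1 identifier in 1 library, with the 3 foxn1-/- libraries left of the 3 foxn1+/+ libraries in each panel; numbers in brackets are the last digits of the Ensembl identifier. Red marks the identifier placed first in a family by hand, not a class such as muscle forms. In all 8 panels that identifier is one that lies higher in foxn1-/- thymi, such as COX6A1 (458, 349 and 449.9 against 30.1, 24.2 and 52.2 CPM). By contrast, cox6b1 and the minor COX5B and COX7A2 identifiers lie lower. Not every family is shown, and COX5A, whose ratio overlapped, is left out.

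The contractile muscle list was set beside these paralogues. The foxn1+/+ library with the most muscle transcripts, replicate 3 with 2.49% of its counts, was also the highest of its genotype for COX6A1 (ENSDARG00000054588), COX5B (ENSDARG00000068738), cox7a1 and cox8b. It was the lowest of its genotype for cox6b2 and NDUFA4, and between the others for COX4I2. In other complexes, too, foxn1+/+ replicate 3 was the highest of its genotype for ATP5F1B, SDHA, UQCRC1 and NDUFA9, and the lowest for ATP5F1A and SDHB. Genes of both kinds thus shared that rank, but the margins differed. Replicate 3 had 52.2 CPM of COX6A1 against 30.1 and 24.2 CPM, and 29.0 CPM of COX5B against 13.6 and 13.7 CPM. For cox8b it had 6.59 against 5.80 and 5.68 CPM, and for ATP5F1B 1821 against 1398 and 1569 CPM. The part of muscle in these values was not tested. Among foxn1-/- libraries the order was different: replicate 2 had the largest muscle share, at 16.2%, and the lowest values of COX6A1, COX5B, cox7a1 and cox8b. Without foxn1+/+ replicate 3 the log2 fold changes were 3.94 for COX6A1, 3.65 for COX5B and 3.06 for cox7a1. That of cox8b stayed between 1.94 and 2.04 whichever library was left out. With all libraries, COX4I2 was at 2.17, NDUFA4 at 1.19 and cox6b2 at 1.08. The median log2 fold change of the 35 contractile genes was 3.35.

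In complex V, 15 of 18 subunits were higher. The catalytic subunit ATP5F1B had the most counts of all members, with 3240.4, 2689.8 and 3469 CPM in foxn1-/- thymi against 1398, 1569 and 1821 CPM in foxn1+/+ thymi (0.97, SE 0.167, adjusted p = 0.00161). Its partner ATP5F1A measured 466, 395 and 455 CPM in foxn1-/- thymi against 219, 225 and 191 CPM (1.05, SE 0.124, adjusted p = 0.000290). Every foxn1-/- library was above every foxn1+/+ library for both. Of the stalk subunits, ATP5PO, which joins the catalytic head to the peripheral stalk, was higher by 1.15 (SE 0.115) and ATP5F1C, the rotating shaft, by 0.94 (SE 0.121).

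The largest change in complex V was in subunit e, which helps ATP synthase to dimerize. Its paralogue atp5meb measured 263, 227 and 244 CPM in foxn1-/- thymi against 77.8, 83.2 and 83.8 CPM in foxn1+/+ thymi (1.58, SE 0.106, adjusted p = 4.00e-05). By contrast, atp5mea measured 13.5, 13.0 and 14.2 CPM in foxn1-/- thymi against 14.6, 16.2 and 14.4 CPM (-0.15, SE 0.113, adjusted p = 0.271), with all foxn1-/- libraries below the others by a small margin. The log2 ratio of the pair was 4.17 ± 0.0990 in foxn1-/- and 2.44 ± 0.0951 in foxn1+/+ libraries.

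The membrane ring of complex V is built from subunit c, and its 3 genes did not rise alike. The gene atp5mc3b was at 726, 665 and 656 CPM in foxn1-/- thymi against 377, 372 and 337 CPM in foxn1+/+ thymi (0.91, SE 0.114, adjusted p = 0.000361). ATP5MC3 overlapped, at 223, 197 and 234 CPM in foxn1-/- thymi against 193, 206 and 188 CPM (0.16, SE 0.111, adjusted p = 0.238), as did atp5mc1 (0.14, adjusted p = 0.255). In mammals the genes for subunit c make the same mature protein. The ratio of atp5mc3b to ATP5MC3 was 1.69-fold higher in foxn1-/- libraries.

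The associated factors were divided. Of 16, 8 were higher and 2 lower, and their median of 0.24 turned to -0.17 with library size alone. The higher ones were COX7A2L (0.84), which helps complexes to join into supercomplexes, the ATP synthase inhibitors atp5if1a (0.55) and atp5if1b (0.57), NDUFA4L2 (1.69), the assembly factors SDHAF2 (0.51), SDHAF3 (0.43) and sdhaf1 (1.13) of complex II, and NDUFAF3 (1.08) of complex I. NDUFA4L2, which hypoxia induces in mammals, had 3.96, 2.93 and 3.05 CPM in foxn1-/- thymi against 1.12, 0.983 and 0.960 CPM in foxn1+/+ thymi (SE 0.225, adjusted p = 0.000492). The complex I assembly factors NDUFAF7 and NDUFAF4 were lower, by 1.01 and 0.61 on the log2 scale, and the other 5 assembly factors of complex I did not pass. The call of NDUFAF4 was lost without foxn1+/+ replicate 2 (adjusted p = 0.0524), and that of SDHAF3 without foxn1-/- replicate 1 or 3 or foxn1+/+ replicate 1 or 3 (adjusted p between 0.0504 and 0.0748).

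The subunits encoded in the mitochondrial genome were higher in foxn1-/- thymi in every case. All 13 passed, with log2 fold changes between 1.18 and 1.71 and a median of 1.57. MT-CO2, a catalytic subunit of complex IV and the one with the most counts, was at 9362.5, 8293 and 9031 CPM in foxn1-/- thymi against 3558, 3743 and 4069.5 CPM in foxn1+/+ thymi (1.23, SE 0.143, adjusted p = 0.000271). The 13 genes together took 3.38 ± 0.236% of the counts in foxn1-/- libraries and 1.70 ± 0.0812% in foxn1+/+ libraries. Relative to the 90 nuclear subunits, their sum was 1.52-fold higher in foxn1-/- libraries, with no overlap between genotypes (exact permutation test, p = 0.1, the smallest possible).

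Summed CPM of the nuclear subunits was 16911, 14958 and 16836 in foxn1-/- thymi against 9071, 9519 and 9599 in foxn1+/+ thymi. By complex, the ratio of the mean sums was 1.61 for complex I, 1.54 for II, 1.68 for III, 1.67 for IV and 1.83 for V. As mean shares of all counts, the same ratios were smaller, at 1.21, 1.16, 1.27, 1.26 and 1.38. Complex IV as a whole therefore stood close to the others, although its single genes ranged most widely. Within foxn1-/- libraries, replicate 2 had the lowest sum in each of the 5 complexes.

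**Figure D4:**
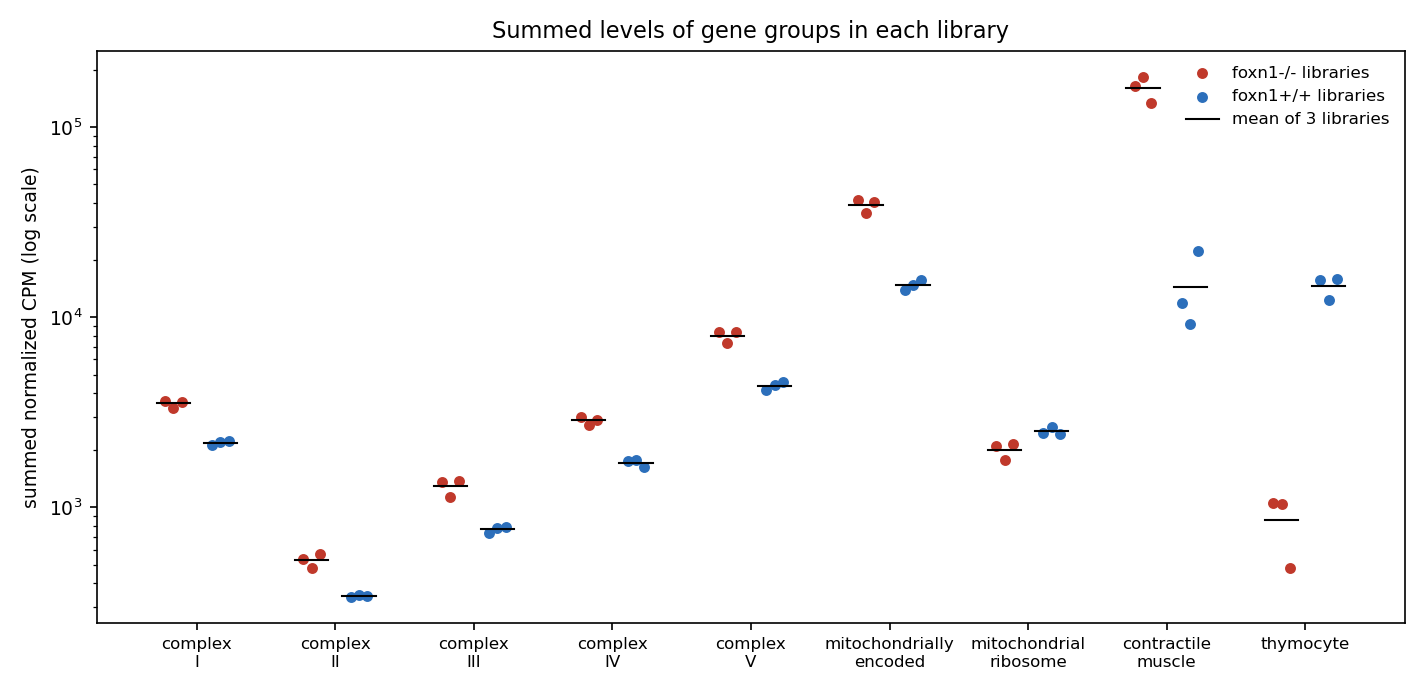
Each point is the summed normalized CPM (log scale) of a gene group in 1 library, foxn1-/- in red and left, foxn1+/+ in blue and right, with the mean of 3 libraries as a line. The 5 complexes and the mitochondrially encoded subunits are higher in foxn1-/- libraries without overlap, the mitochondrial ribosome is lower, and the contractile muscle and thymocyte markers differ by more than 10-fold in opposite directions.

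The electron carriers and the transporters that serve the complexes followed the subunits. Of 15 genes tested, 14 were higher and 0 lower by edgeR (0 also at an unadjusted p under 0.05 and with DESeq2 or voom and treat), with a median of 1.33. The list and its median include both CKMT2 identifiers (3.45 and 3.47), which encode a mitochondrial creatine kinase and not a carrier. The higher call of SLC25A3 ENSDARG00000027424 came from 5, 31 and 204 counts in foxn1-/- libraries, which overlapped the 7, 9 and 12 counts in foxn1+/+ libraries. SLC25A5, an exchanger of ADP and ATP and the member of the list with the most counts, was at 5293, 4459 and 4788 CPM in foxn1-/- thymi against 3666, 3271 and 3185 CPM in foxn1+/+ thymi (0.52, SE 0.143, adjusted p = 0.0132). Its paralogue SLC25A4, the form of mammalian heart and skeletal muscle, was at 939.7, 869 and 686 CPM in foxn1-/- thymi against 59.95, 40.1 and 97.0 CPM (3.66, SE 0.348, adjusted p = 0.000139). Cytochrome c (cycsb) overlapped between genotypes, at 295, 199.9 and 323 CPM in foxn1-/- thymi against 187, 239 and 209 CPM (0.37, adjusted p = 0.131). CYC1, cytochrome c1, was higher by 0.84 (SE 0.136). It is counted in this list although it is itself a subunit of complex III.

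In the citric acid cycle, which supplies NADH and succinate, 16 of 22 genes were higher and 2 lower, with a median of 1.12. The list and its median include genes of pyruvate dehydrogenase (pdha1a, pdha1b, PDHB, DLAT and PDHX), which is not an enzyme of the cycle. They also include MDH1 and mdh1b, malate dehydrogenases other than the mitochondrial form. MDH2, mitochondrial malate dehydrogenase and the gene of the list with the most counts, was at 1279, 1067 and 1222 CPM in foxn1-/- thymi against 407, 426 and 488 CPM in foxn1+/+ thymi (1.43, SE 0.137, adjusted p = 0.000124). Citrate synthase (CS) was higher by 1.54 (SE 0.156). The 2 lower genes were mdh1b (-1.23) and OGDH (-0.39).

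Genes that build the machinery showed no excess of higher calls. Of 56 assembly factors tested, 12 of them also members, 15 were higher and 15 lower, with a median of -0.08. Each direction held 26.8% of the list, less than the 36.2% higher and 35.9% lower over all genes tested. The balance of the assembly factors depended on the scaling, since library size alone gave 3 higher and 31 lower. Without foxn1+/+ replicate 1 the higher calls numbered 8. COX10, which takes part in making the heme of complex IV and had the most counts of that list, was lower, at 74.2, 61.0 and 76.3 CPM in foxn1-/- thymi against 114, 111 and 127 CPM in foxn1+/+ thymi (-0.74, SE 0.123, adjusted p = 0.00140). Of 76 proteins of the mitochondrial ribosome, which translates the mitochondrially encoded subunits, 3 were higher and 36 lower, with a median of -0.36. These are 3.95% and 47.4% of the list, against 36.2% higher and 35.9% lower over all genes tested. The lower calls numbered 28 to 32 when 1 library at a time was left out. MRPL12, the ribosomal gene with the most counts, did not pass (-0.38, SE 0.184, adjusted p = 0.0989).

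The sum of the 90 subunits over that of the mitochondrial ribosome was 2.17-fold higher in foxn1-/- libraries, without overlap (exact permutation test, p = 0.1). Proliferation markers, which dividing cells express, were lower for all 18 genes tested, and took 0.0494 ± 0.00424% of the counts in foxn1-/- against 0.461 ± 0.0166% in foxn1+/+ libraries. Whether the mitochondrial ribosome moved with them was not tested.

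The regulators of mitochondrial biogenesis were split as well, with 7 higher and 13 lower of 22. These are 31.8% and 59.1% of the list, against 36.2% and 35.9% over all genes tested. PPARGC1A, the coactivator PGC-1alpha that raises oxidative gene expression in mammalian muscle, was at 36.7, 29.2 and 40.9 CPM in foxn1-/- thymi against 2.53, 3.80 and 4.38 CPM in foxn1+/+ thymi, a 9.99-fold higher level (3.32, SE 0.240, adjusted p = 5.00e-05). The estrogen-related receptors, with which PGC-1alpha acts, were higher for all 4 identifiers listed, at 1.14 for ESRRA, 1.31 for esrrb, 2.88 for ESRRG and 1.81 for esrrgb. Counts were low for esrrgb, at 26, 22 and 16 in foxn1-/- libraries against 12, 5 and 4 in foxn1+/+ libraries. They were also low for esrrb, at 33, 52 and 35 against 18, 18 and 18. ESRRG was uneven, with 458, 1148 and 455 counts in foxn1-/- libraries against 73, 124 and 109 in foxn1+/+ libraries. The receptor pparaa (0.86) and GABPB1 (0.86) completed the higher group, GABPB1 with an adjusted p of 0.0577 and 0.0622 without foxn1+/+ replicate 2 or 3.

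NRF1 and GABPA, which bind promoters of respiratory genes, were lower. GABPA, the DNA-binding subunit of nuclear respiratory factor 2 and partner of GABPB1, was at 34.8, 31.1 and 34.3 CPM in foxn1-/- thymi against 156, 153 and 172 CPM in foxn1+/+ thymi (-2.26, SE 0.106, adjusted p = 2.22e-05). NRF1 was at 24.0, 24.3 and 25.1 CPM in foxn1-/- thymi against 79.7, 66.7 and 79.3 CPM (-1.62, SE 0.110, adjusted p = 4.20e-05). TFAM, which packs mitochondrial DNA and starts its transcription, was at 32.6, 30.2 and 32.4 CPM in foxn1-/- thymi against 58.8, 62.8 and 63.0 CPM (-0.96, SE 0.0939, adjusted p = 0.000139). The groups were far apart for all 3.

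Of the genes for copying and transcribing mitochondrial DNA, the helicase TWNK (-1.25), the polymerase subunits POLG (-1.02) and POLG2 (-0.94) and the RNA polymerase POLRMT (-0.96) were lower too. SSBP1 (-0.89) and TFB1M (-0.63) of the same list were lower as well. The coactivators pprc1 (-1.58) and ppargc1b (-0.65) and both PPARD identifiers (-0.73 and -0.75) were also lower. The call of TFB1M was lost without foxn1-/- replicate 3 (adjusted p = 0.051), and that of the PPARD identifier ENSDARG00000044525 when any 1 library other than foxn1+/+ replicate 2 was left out (adjusted p between 0.0538 and 0.121). PPARA (-0.20) and tfb2m (0.37) did not pass, although tfb2m had an adjusted p of 0.0124 without foxn1-/- replicate 2.

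**Figure D5:**
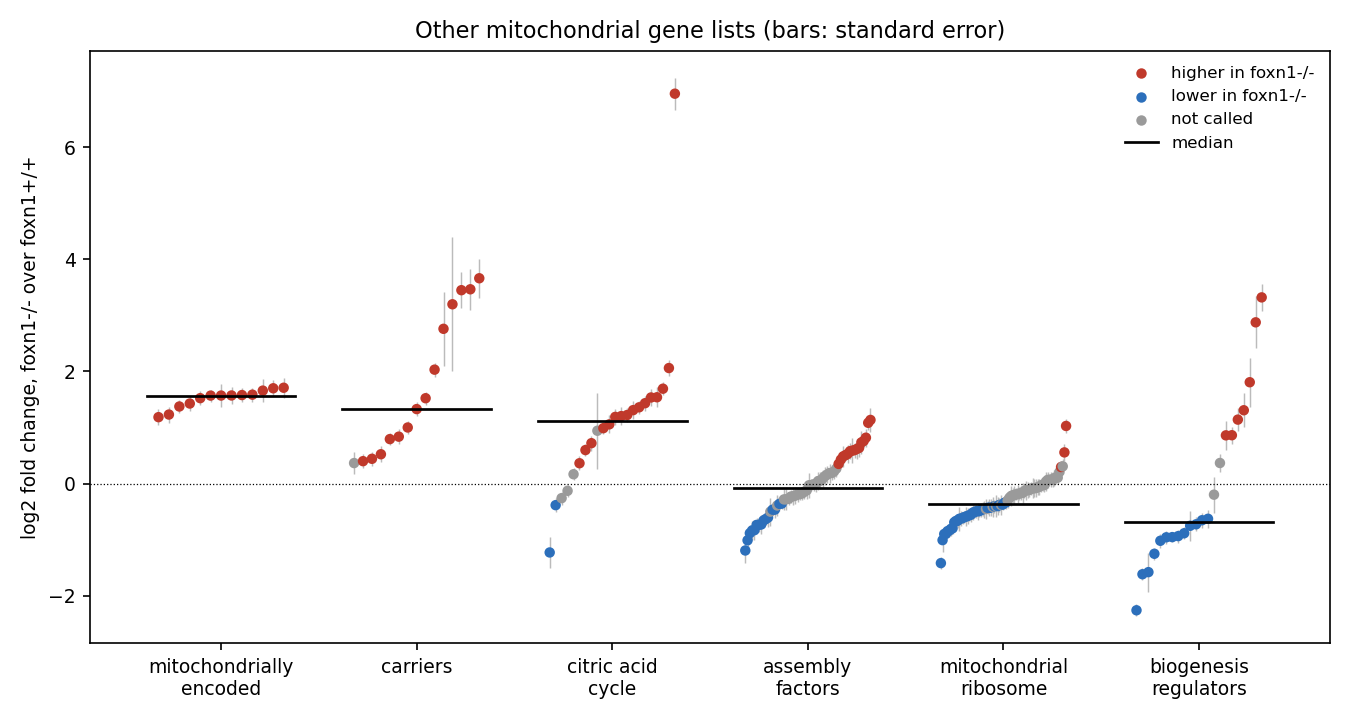
Each point is a gene of 1 of 6 mitochondrial lists, with its log2 fold change of foxn1-/- over foxn1+/+ thymi on the vertical axis, its standard error as a bar (3 libraries per genotype) and list medians as black lines. The lists of mitochondrially encoded subunits, carriers and the citric acid cycle have medians of 1.57, 1.33 and 1.12. Of the cycle list, mdh1b (-1.23) and OGDH (-0.39) are lower, whereas ogdha, related to OGDH, is higher (0.36). The medians of assembly factors, mitochondrial ribosome and regulators are -0.08, -0.36 and -0.69.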

How the data were processed

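RNA of whole thymi was sequenced in 6 libraries, each a pool of 3 zebrafish, 3 libraries per genotype. Genotype and replicate number were taken from the sample labels. Per the submitters' processing notes, the tools were Trim Galore 0.4.3.1, HISAT2 2.1.0 and featureCounts 1.6.1.0 with genome build GRCz11; the annotation release and the treatment of strand and of multiply aligned reads are not given in the sources used here. The deposited values are unnormalized whole-number counts for each Ensembl identifier. The labels name a NEBNext kit for low input and the Methods the Ultra RNA kit.

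Gene names came from a table that pairs 29201 of the 32520 identifiers with symbols, some of them of human orthologues; lists were matched by symbol, ignoring case and then paralogue suffixes. No coordinates and no sequences are given, since no genome of the build was used. The test covered the 23805 genes whose count exceeded 5 in 3 or more libraries, as the Methods filter them. In R 4.3.3, edgeR 4.0.16 (quasi-likelihood, robust, TMM, 2-sided) was run on the deposited counts, and p-values were adjusted by Benjamini-Hochberg over all of them at 0.05. Standard errors are the fold change over the square root of F. Paralogues were compared by the log2 ratio of counts in each library with a 2-sided exact permutation test. CPM are scaled by TMM. Nothing says whether reads came from separate clutches, so p-values measure the spread between pools.

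Alternatives were voom and treat (fold 1.2, limma 3.58.1), DESeq2 1.42.0, its size factors in edgeR, library size alone, TMM without muscle, mitochondrial and member genes, omitting the filter, requiring 10 counts everywhere, a block for replicate numbers, and leaving out each library. The code was tested on simulated data. Replicate libraries had a chi-square of 34.1 to 106 per degree of freedom between them, so none was a copy.

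The genes named were all paralogue families, the members with the most counts and the extreme fold changes of each complex, catalytic core subunits, the most abundant gene of each list, each regulator and foxn1. Not every item covered by this rule is reported here. Others named (such as SLC25A4, CYC1, CS, mdh1b, OGDH, ATP5PO and the members that did not pass) were chosen after their values were seen. Members and lists were chosen with earlier results of these data known. Thymic epithelium markers (5 higher and 5 lower of 12) were also measured.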

Additional observations from a re-analysis of the deposited data

How the results depend on the processing

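Scaling had the largest effect. With library size alone, 46 members were higher and 15 lower, and 34 of the 86 called members lost their call. Those that lost it included NDUFB9 (0.04), UQCRC1 (0.01), SDHA (0.31), COX4I1 (0.20), cox5aa (0.23) and COX5A (0.18). Under that scaling complexes I, II and III had 19, 1 and 4 higher calls, complexes IV and V had 7 and 1 lower calls, and the associated factors had 4 higher and 7 lower. The assembly factors then had 3 higher and 31 lower calls, the citric acid cycle 4 lower, and the mitochondrial ribosome 1 higher and 67 lower. The sign turned with library size alone for NDUFV1 (-0.14), SDHB (-0.022), ATP5MC3 (-0.25), COX7A2 ENSDARG00000053217 (-0.18) and tfb2m (-0.0416). Higher and lower members numbered 67 and 4 with voom and treat, 80 and 6 with DESeq2, 78 and 6 with its size factors, 83 and 5 with TMM without muscle, mitochondrial and member genes, 79 and 5 with no filter, and 82 and 4 of 104 with at least 10 counts in every library. Of the 86, 70 kept their call in every alternative other than library size in which they were tested. With at least 10 counts in every library, 2 of the 86 were not tested, COX5B ENSDARG00000113254 and SDHD ENSDARG00000055712. COX5B ENSDARG00000015978 lost its lower call under that setting (adjusted p = 0.0536), and complex IV was left with 2 lower calls. Voom and treat, which tests against a fold of 1.2, left 1 associated factor lower, 8 assembly factors higher, 1 citric acid cycle gene lower, and 1 mitochondrial ribosome gene higher and 18 lower. TMM without muscle, mitochondrial and member genes gave 5 higher mitochondrial ribosome genes, and no filter 1 lower citric acid cycle gene. Leaving out 1 library at a time gave 72 to 82 higher and 4 to 7 lower members, 1 to 2 lower associated factors, 8 to 18 higher assembly factors and 1 to 2 lower citric acid cycle genes. Some log2 ratios that overlapped between genotypes also changed sign, with ranges of -0.11 to 0.61 for cox4i1l to COX4I1, -0.014 to 0.093 for COX5A and -0.012 to 0.046 for ATP5IF1. The SDHD ratio, which overlapped too, kept its sign (0.69 to 1.77). Signs also turned for genes without a call when 1 library was left out: NDUFB2 ranged from -0.24 to 0.18, PPARA from -0.35 to 0.027, ndufa4b from -0.45 to 0.056, cox8a from -0.18 to 0.0031 and cox7b from -0.059 to 0.075. The sign of cox7b also turned with TMM without muscle, mitochondrial and member genes (0.041), with no filter (0.024) and with at least 10 counts in every library (0.020). With library size alone cox7b (-0.41), cox8a (-0.48) and cox6a1 ENSDARG00000022438 (-0.58) gained a lower call. Causes were not tested. Nothing says that replicate numbers pair libraries, and deviations of same-numbered libraries correlated at 0.139, -0.117 and -0.0121, with 2 of 6 libraries closest to their own number. With the replicate block, 73 members were higher and 5 lower, and 1 citric acid cycle gene was lower. Pooled libraries, 3 per genotype and unknown read sharing between paralogues limit these values.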
